A study of Mus musculus with 4 samples.

Results

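The 8 genes Ckm, Ckmt2, Ckb, Ak1, Ampd1, Ampd3, Adssl1 and Adsl encode the creatine kinases, the muscle adenylate kinase and the enzymes of the purine nucleotide cycle. They were selected by gene symbol, as 8 of 20340 gene labels with an expression value in all 4 samples. Ckmt2, the creatine kinase of mitochondria, was the gene whose old and young samples stood furthest apart: its level was 782 and 344 FPKM in the old muscles and 846 and 2318 FPKM in the young muscles. Ckm was listed at 0 in every sample, and the other 6 genes overlapped between the ages.

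Expression was measured by mRNA-seq in tibialis anterior (TA) muscle, a predominantly fast muscle of the shin, of C57BL/6 mice that were wild type at both ages. The samples Old 1 and Old 2 came from mice aged 20 months, in which the study described smaller muscle fibers, and Young 1 and Young 2 from mice aged 3 months. The labels name the tissue only as muscle, the methods state that sex was chosen at random, and the design text speaks of more samples per age than the 2 used here. Nothing in the labels says that samples of one age came from separate mice, so p-values measure only the spread between these samples, which may be technical.

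Working muscle regenerates ATP from phosphocreatine through creatine kinase, which exists as a cytosolic muscle form (Ckm), a cytosolic brain form (Ckb) and a mitochondrial form of striated muscle (Ckmt2). Adenylate kinase 1 (Ak1) makes ATP and AMP from ADP. AMP deaminase (Ampd1 in muscle, Ampd3 in red blood cells and many other tissues) then removes the amino group to give IMP. Adenylosuccinate synthetase (Adssl1 in muscle) and adenylosuccinate lyase (Adsl) bring IMP back to AMP, which closes the purine nucleotide cycle and releases fumarate.

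FPKM values are sequenced fragments scaled by transcript length and by the fragments of the sample, so levels of different genes can be set side by side within a sample. Read counts and depth are unknown, and no counting error is given. The summed FPKM of the 20605 loci shared by the samples was 698130 for Old 1 and 739302 for Young 2, but 226747 for Old 2 and 251294 for Young 1. Old 1 and Young 2 were therefore on one scale, and Old 2 and Young 1 on another. The gap differed with level, so a common factor does not remove all of it. For Old 1 to Old 2 the median log2 ratio was 0.975 at 30 to 100 FPKM and 1.679 above 1000 FPKM. For Young 1 to Young 2 it was -0.956 and -1.759. Of the shared loci, 5223 (Old 1) and 5335 (Young 2) were at 0, against 9558 (Old 2) and 9452 (Young 1). At moderate levels the 2 samples of one age were also closer to each other in pattern than samples of different ages: over 1965 genes of 10 to 30 FPKM, log2 ratios had a robust SD of 0.062 within the old and 0.064 within the young samples, and of 0.386 (Old 1 to Young 2) and 0.39 (Old 2 to Young 1) across the ages. These ranges refer to the geometric mean of a gene over the samples. Over 448 genes of 100 to 1000 FPKM, the robust SD was 0.088 within the old and 0.097 within the young samples. Across the ages it was 0.424 (Old 1 to Young 2) and 0.394 (Old 2 to Young 1). Ckmt2, Ak1, Ampd1 and Adssl1 lie in this range. Above 1000 FPKM the order was the other way over 43 genes, with 0.805 and 0.626 within the ages and 0.506 and 0.377 across them. None of the 8 genes has a mean that high. The study describes its statistics as based on 2 independent mRNA-seq experiments, which the values alone cannot show. If the samples of an age are 1 library, each age has n = 1 and no test has a replicate check. For these reasons each sample's value is given, and old to young ratios are shown for samples of similar scale (Old 1 with Young 2, Old 2 with Young 1), a pairing chosen after the values were seen.

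Of the creatine kinases, Ckm encodes the main cytosolic enzyme of skeletal muscle. It was listed at 0 FPKM in Old 1, Old 2, Young 1 and Young 2, at its locus on chromosome 7 (19410905 to 19424001, mm10). An antisense gene assigned the identical span, A930016O22Rik, was also listed at 0 in all samples. In all, 4517 gene labels (22.2%) were listed at 0 in every sample, among them Myh4, a fast myosin heavy chain. A value of 0 could thus not be read as a lack of transcript, and Ckm was not tested.

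Ckmt2 lies on the minus strand of chromosome 13 (91853387 to 91876885, mm10), and the annotated antisense transcript 1700119I11Rik lies within it. Its level was 782 FPKM (Old 1), 344 FPKM (Old 2), 846 FPKM (Young 1) and 2318 FPKM (Young 2). The old samples were both below the young samples, although Old 1 and Young 1 were close on the deposited scale. In samples of similar scale the old level was 0.337 times the young level (Old 1 to Young 2) and 0.406 times the young level (Old 2 to Young 1).

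The 2 samples of one age differed in Ckmt2 level about as much as the ages did, with ratios of 2.28 (Old 1 to Old 2) and 2.74 (Young 2 to Young 1). The log2 fold change, old minus young on the log2(FPKM + 1) scale, was -1.43 with an SE of 1.22 (limma, adjusted p = 1.0 over 10266 genes), so it did not pass the test. Of the 10266 tested genes, 90 (0.877%) had a lower log2 fold change. The exact two-sided permutation test gave p = 0.333, the smallest value that 2 against 2 samples allow.

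Ckb lies on the minus strand of chromosome 12 (111669355 to 111672338, mm10). Its level was 6.21 FPKM (Old 1), 2.35 FPKM (Old 2), 2.57 FPKM (Young 1) and 7.01 FPKM (Young 2). The ages overlapped, with Old 1 near Young 2 and Old 2 near Young 1. Ratios in samples of similar scale were 0.886 and 0.915, and the log2 fold change was -0.12 with an SE of 0.99 (limma, adjusted p = 1.0).

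Within a sample, Ckb stood at 0.794% (Old 1), 0.684% (Old 2), 0.304% (Young 1) and 0.302% (Young 2) of the Ckmt2 level. The ratio of brain to mitochondrial creatine kinase was therefore higher in each old sample than in either young sample, by 2.43-fold in the geometric mean (exact permutation test, two-sided, p = 0.333). A ratio within a sample carries no factor common to that sample. Ckb itself was not higher in old muscle in samples of similar scale (ratios 0.886 and 0.915). The higher ratio thus restates the lower Ckmt2 level and is not a separate result. Ckb remained a small part of the creatine kinase transcripts with a value at either age.

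The sequences just upstream of the annotated starts of these creatine kinase genes are given because their ratio differed between the ages. They are RefSeq windows of 250 bases on GRCm38.p6 (mm10), written 5′ to 3′ on the minus strand that both genes use, and end at the base before the start. Capitals mark the E-box CANNTG, a motif bound by muscle basic helix-loop-helix factors, which reads alike on both strands. The windows are chr13:91876886-91877135 for Ckmt2 and chr12:111672339-111672588 for Ckb.
Ckmt2: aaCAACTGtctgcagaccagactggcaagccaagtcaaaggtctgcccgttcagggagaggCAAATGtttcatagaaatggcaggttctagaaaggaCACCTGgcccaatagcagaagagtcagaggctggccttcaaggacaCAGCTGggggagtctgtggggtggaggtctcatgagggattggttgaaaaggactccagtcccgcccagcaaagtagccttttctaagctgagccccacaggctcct
Ckb: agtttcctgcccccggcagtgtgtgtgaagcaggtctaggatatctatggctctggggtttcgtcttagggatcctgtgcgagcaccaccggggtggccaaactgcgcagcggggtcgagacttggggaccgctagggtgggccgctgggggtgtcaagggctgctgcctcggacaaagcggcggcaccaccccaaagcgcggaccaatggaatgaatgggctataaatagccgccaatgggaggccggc

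The Ckmt2 window held 4 E-boxes, which begin 248, 189, 153 and 107 bases before the start, and 3.84% of the 32851 RefSeq windows of this length held at least 4. The Ckb window held 0, while 66.2% of windows held at least 1. The motif AAGGTCA of estrogen-related receptors, searched on both strands, was in neither window and in 4.08% of all windows. A window was available for 7 of the 8 genes (all but Ampd1), and of these Adssl1 had 2 E-boxes, Ckm 1 and Adsl 1, while Ak1 and Ampd3 have several annotated starts with 0 to 3 each. A match to these letters is a description of the sequence, not a binding site.

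Ak1, on the plus strand of chromosome 2 (32621758 to 32635931, mm10), was among the most abundant of the 8 genes. Its level was 979 FPKM (Old 1), 408 FPKM (Old 2), 511 FPKM (Young 1) and 1282 FPKM (Young 2). Each old sample lay below the young sample of its own scale, with ratios of 0.764 (Old 1 to Young 2) and 0.8 (Old 2 to Young 1), while the ages overlapped on the deposited scale. The log2 fold change was -0.35 with an SE of 1.19 (limma, adjusted p = 1.0).

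Ampd1, the AMP deaminase of muscle, lies on the plus strand of chromosome 3 (103074014 to 103099720, mm10). Its level was 1021 FPKM (Old 1), 406 FPKM (Old 2), 360 FPKM (Young 1) and 866 FPKM (Young 2). Here the old sample was the higher one in each pair of similar scale, by ratios of 1.18 and 1.13, and the ages overlapped as deposited. The log2 fold change was 0.21 with an SE of 1.16 (limma, adjusted p = 1.0).

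Ampd3 lies on the plus strand of chromosome 7 (110768348 to 110812395, mm10), and 11964 bases of its span are shared with Rnf141 on the minus strand. Its level was 6.83 FPKM (Old 1), 3.17 FPKM (Old 2), 2.07 FPKM (Young 1) and 4.92 FPKM (Young 2). The old to young ratios of 1.39 and 1.53 were the highest among the 7 genes with a value. The log2 fold change was 0.42 with an SE of 0.99 (limma, adjusted p = 1.0), and Old 2 lay below Young 2, so the ages overlapped. The study names a strand-specific library kit, but whether counting used the strand was not given in the sources used here, so reads from the overlap with Rnf141 may not have been told apart.

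Adssl1, the muscle adenylosuccinate synthetase, lies on the plus strand of chromosome 12 (112616395 to 112642154, mm10). Its level was 823 FPKM (Old 1), 357 FPKM (Old 2), 333 FPKM (Young 1) and 753 FPKM (Young 2). The ratios in samples of similar scale, 1.09 and 1.07, were close to 1. The log2 fold change was 0.11 with an SE of 1.14 (limma, adjusted p = 1.0).

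Adsl, which also acts in purine synthesis, lies on the plus strand of chromosome 15 (80948519 to 80969373, mm10), and the processed pseudogene Gm6612 lies within it. Its level was 81.4 FPKM (Old 1), 42.2 FPKM (Old 2), 51.1 FPKM (Young 1) and 98.9 FPKM (Young 2). Its old to young ratios were nearly equal in both pairs, at 0.824 and 0.825. The log2 fold change was -0.27 with an SE of 0.95 (limma, adjusted p = 1.0), and the ages overlapped.

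**Figure D1:**
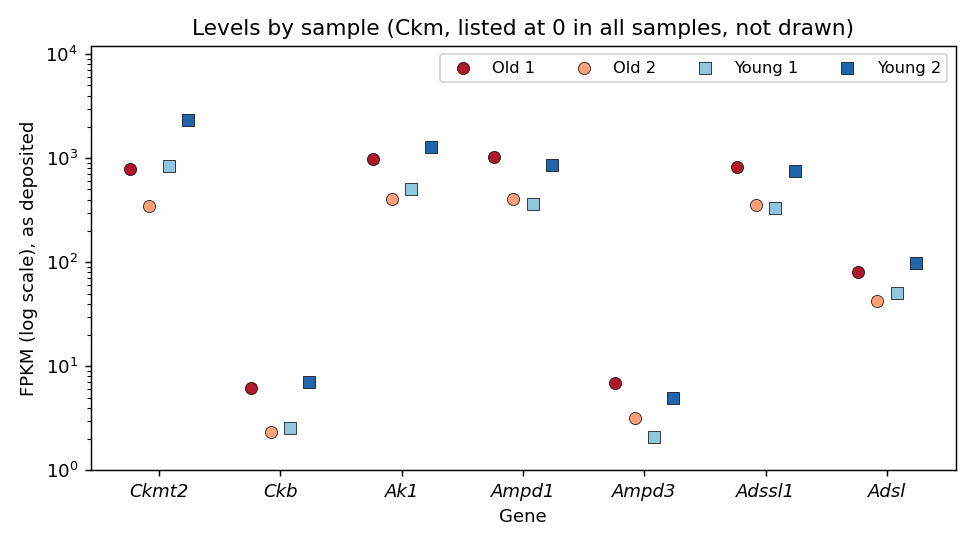
Level of 7 genes in each sample, in FPKM as deposited on a log axis, with old samples as circles and young samples as squares. For every gene Old 1 lies above Old 2 and Young 2 above Young 1, and Ckmt2 is the gene in which both old samples (782 and 344 FPKM) lie below both young samples (846 and 2318 FPKM).

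Of the 8 genes, 7 passed the filter of at least 1 FPKM in at least 2 samples and were tested. With the values as deposited, limma called 0 of the 7 at an adjusted p under 0.05, against a background of 0.175% of 10266 genes called higher and 0.127% called lower in old muscle. At an unadjusted p under 0.05 the counts were 0 of 7 genes and 77 of 10266. The old samples lay below both young samples in 1 of 7 genes (Ckmt2; background 1.93%) and above them in 0 of 7 (background 1.61%). In samples of similar scale, 4 genes (Ckmt2, Ckb, Ak1 and Adsl) were lower in old muscle in both pairs and 3 (Ampd1, Ampd3 and Adssl1) were higher in both, where 45.2% and 42.3% of all tested genes did the same. The split of the 7 genes by direction was thus near that of all genes.

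The calls depended on how the samples were scaled. With each sample divided by its median ratio over genes above 0 in all samples, limma gave Ckmt2 a log2 fold change of -1.41 with an SE of 0.13 (adjusted p = 0.0704) and called 0 of the 7 genes (background 0.234% higher and 0.214% lower). At an unadjusted p under 0.05 the counts were 2 of 7 genes (Ckmt2 and Ampd3) and 1856 of 10266 tested genes. On that scale the ages did not overlap in Ckmt2 and Ak1 (lower in old muscle) or in Ampd1, Ampd3 and Adssl1 (higher), beside 23.5% of tested genes lower and 23.7% higher. With the median taken over the 2447 genes of at least 10 FPKM in all samples, a version added after seeing the data, limma called Ckmt2 (-1.41, SE 0.20, adjusted p = 0.024) and Adsl (-0.25, SE 0.04, adjusted p = 0.0291) lower. Ampd3 was called higher (0.45, SE 0.09, adjusted p = 0.0494), and Ckb, Ak1, Ampd1 and Adssl1 had adjusted p from 0.274 to 0.832 (limma). This scaling called 14.2% of all tested genes higher and 14.8% lower. With the pairs of similar scale as a block, also added after seeing the data, limma called 3 of the 7 genes higher (Ampd1, Ampd3 and Adssl1; background 27.4%) and 3 lower (Ckmt2, Ak1 and Adsl; background 32.9%).

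On that added scale, Ckmt2 was 553 (Old 1), 492 (Old 2), 1189 (Young 1) and 1626 (Young 2). The gap between the ages was then wider than that between samples of one age. Adsl was 57.6, 60.4, 71.8 and 69.3, and Ampd3 was 4.83, 4.54, 2.92 and 3.45 in the same order. Ak1 also stood apart between the ages (693 and 585 old, 718 and 899 young), whereas Ampd1 (722 and 582 old, 507 and 607 young) and Adssl1 (582 and 511 old, 468 and 528 young) overlapped. In all, the ages did not overlap in 1 gene higher and 3 genes lower in old muscle on this scale, beside 29.5% and 28.5% of all tested genes.

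**Figure D2:**
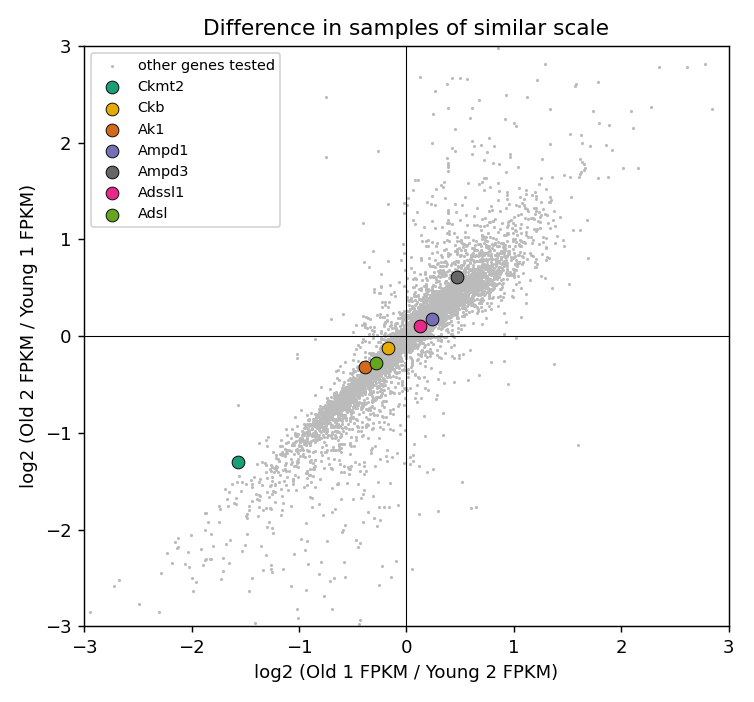
Old to young log2 ratio of FPKM in the samples of larger scale (Old 1 to Young 2, horizontal) and of smaller scale (Old 2 to Young 1, vertical), for the 7 genes in color and other tested genes above 0 in all samples in gray. Ckmt2 lies at -1.57 and -1.30, outside the dense part of the cloud, and the other 6 genes lie between -0.39 and 0.61 (73 of 9293 genes fall beyond the axes, which end at 3 in each direction).

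The order of the genes within a sample, which no common factor changes, differed between the ages at its top. Ckmt2 had the highest level of the 7 genes in Young 1 and Young 2 and ranked 4th in Old 1 and Old 2, behind Ampd1, Ak1 and Adssl1. It made up 21.1% and 22.0% of the summed FPKM of the 7 genes in Old 1 and Old 2, and 40.2% and 43.5% in Young 1 and Young 2. Adsl ranked 5th in every sample. At the lower end, Ampd3 stood above Ckb in both old samples and below it in both young samples.

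Ampd1 took 27.6% and 26.0% of this sum in the old and 17.1% and 16.3% in the young samples. Adssl1 took 22.2% and 22.8% in the old and 15.8% and 14.1% in the young samples. The share of Ak1 moved least among the abundant genes, from 26.5% and 26.1% to 24.3% and 24.1%. These shares sum to a whole, so a lower share of one gene raises those of the others.

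**Figure D3:**
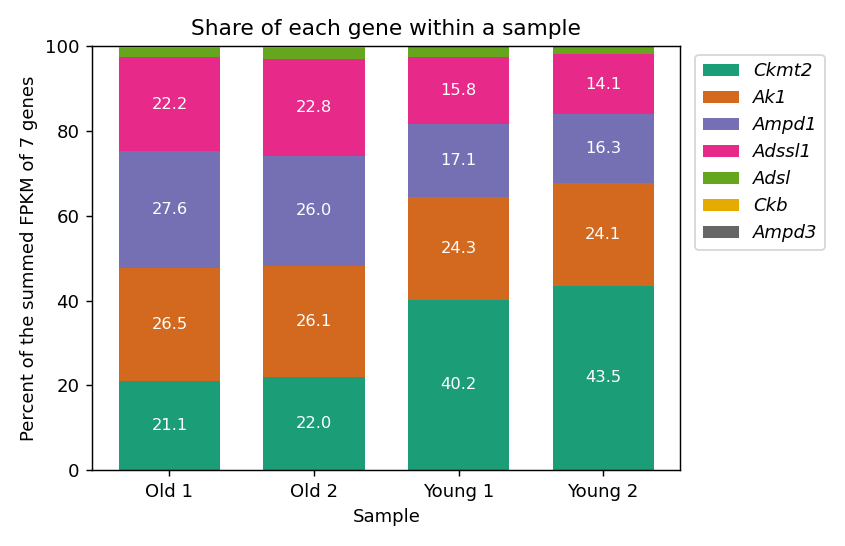
Share of each gene in the summed FPKM of the 7 genes, in percent, as stacked bars for each sample. Ckmt2 fills 21.1% and 22.0% of the bar in the old samples and 40.2% and 43.5% in the young samples, while Ckb and Ampd3 each take 0.203% or less and are too thin to see.

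All 4 of these abundant transcripts lay at percentiles 99.0 to 99.7 of the genes above 0 in their sample. Adsl lay at percentiles 92.5 to 95.0. Ckb (46.7 to 62.6) and Ampd3 (44.1 to 62.5) were near the middle of the distribution. In Old 1, the neighbors Ampd1 and Ak1 (1021 and 979 FPKM) and the neighbors Adssl1 and Ckmt2 (823 and 782 FPKM) differed by less than the samples of one age did, and Ampd1 and Ak1 changed places between Old 1 and Old 2 (406 and 408 FPKM).

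Ratios were also taken to Ampd1 in the same sample, because the denominator first chosen, Ckm, was at 0. The Ckmt2 to Ampd1 ratio was 0.766 (Old 1), 0.846 (Old 2), 2.35 (Young 1) and 2.68 (Young 2). Ckmt2 was thus below Ampd1 in both old samples and above it in both young samples. The old minus young difference in mean log2 ratio was -1.64, a 3.11-fold lower ratio in old muscle (exact permutation test, two-sided, p = 0.333), with SDs of 0.10 and 0.13 on the log2 scale (n = 2 samples per age). The median of this difference over 9292 tested genes above 0 in all samples was -0.22, and 156 of them had a lower value than Ckmt2.

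The Ak1 to Ampd1 ratio was 0.959 (Old 1), 1.0 (Old 2), 1.42 (Young 1) and 1.48 (Young 2). The step that makes AMP and the step that deaminates it thus had transcripts at nearly equal level in old muscle and unequal level in young muscle, with a log2 difference of -0.56. The Adsl to Ampd1 ratio was 0.0797, 0.104, 0.142 and 0.114 in the same order of samples, and the Ckb to Ampd1 ratio was 0.608%, 0.579%, 0.713% and 0.809%. Both were lower in both old samples.

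The Ampd3 to Ampd1 ratio was 0.669% (Old 1), 0.78% (Old 2), 0.576% (Young 1) and 0.568% (Young 2), higher in both old samples with a log2 difference of 0.34, which was 0.02 with quantile normalization. The Adssl1 to Ampd1 ratio was 0.806, 0.878, 0.923 and 0.869, so that these successive enzymes of the cycle kept an overlapping ratio at both ages. Of the 6 ratios to Ampd1, 4 were lower and 1 was higher in both old samples, where 42.2% and 11.9% of 9292 genes did the same. Each of these non-overlapping ratios had an exact two-sided permutation p of 0.333, and the Adssl1 ratio had 0.667.

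The isoforms of other tissues, and the other adenylate kinases named here, remained minor beside the muscle forms at both ages. Adss, the adenylosuccinate synthetase of non-muscle tissue, stood at 1.49% and 1.6% of Adssl1 in the old and 2.0% and 1.9% in the young samples. Ampd2 stood at 0.295% and 0.309% of Ampd1 in the old and 0.333% and 0.346% in the young samples. Among other adenylate kinases, Ak3 of the mitochondrial matrix stood at 3.69% and 3.34% of Ak1 in the old and 4.24% and 4.13% in the young samples, and Ak4 at 0.369% and 0.395% against 0.307% and 0.277%.

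The other genes of these pathways were followed in 6 lists. As deposited, limma called 0 of their 40 tested genes in either direction (0 of 40 also at an unadjusted p under 0.05), and the median log2 fold change over all tested genes was -0.01. In both pairs of similar scale, 13 of the 40 (32.5%) were higher and 22 (55.0%) lower in old muscle, and the counts of each list stand beside the background of 42.3% higher and 45.2% lower over all tested genes. The creatine list (synthesis, uptake and other creatine kinases) had a value for 3 of 4 genes, of which 2 were tested. Gatm, the first enzyme of creatine synthesis, was at 3.17, 1.11, 1.14 and 3.32 FPKM in Old 1, Old 2, Young 1 and Young 2, and the samples of similar scale were alike. Gamt, the second enzyme, was listed at 100 FPKM in Old 1 and 141 FPKM in Young 2 but at 0 in Old 2 and Young 1. It was named after its values were seen. The zeros of Gamt thus lay in the samples of smaller scale at both ages, beside high values in the others, and their cause was not tested.

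Of 12 adenylate and nucleotide kinases, 11 had a value and 8 were tested, with a median log2 fold change of 0.02. In samples of similar scale 4 were higher and 2 lower in old muscle in both pairs. Ak3, which uses GTP in the mitochondrial matrix, was at 36.1 FPKM (Old 1), 13.6 FPKM (Old 2), 21.6 FPKM (Young 1) and 53.0 FPKM (Young 2). Each old sample lay below the young sample of its scale (ratios 0.682 and 0.63, log2 fold change -0.58, limma adjusted p = 1.0).

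Of 17 other genes of AMP, IMP and adenosine turnover, 13 had a value and 10 were tested, with a median log2 fold change of -0.23. In both pairs of similar scale 7 were lower and 3 higher in old muscle. Xdh, the xanthine dehydrogenase at the end of purine breakdown, was at 11.9 FPKM (Old 1), 4.49 FPKM (Old 2), 7.88 FPKM (Young 1) and 21.6 FPKM (Young 2), with ratios of 0.553 and 0.571. Nt5c2, a cytosolic nucleotidase that acts on IMP, was at 2.69, 1.1, 2.01 and 4.57 FPKM in the same order, with ratios of 0.589 and 0.547. In both genes each old sample was the lower one of its pair. Gda, guanine deaminase, had ratios of 0.817 and 0.724, and Nt5c1a, a cytosolic nucleotidase that acts on AMP, had ratios of 1.09 and 1.25. All had an adjusted p of 1.0 (limma).

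Of 12 genes of purine synthesis and guanine nucleotide interconversion, 9 had a value and all 9 were tested, with a median log2 fold change of -0.07. In both pairs 5 were lower and 3 higher in old muscle. Pfas, an enzyme of purine synthesis whose locus is labelled together with Mir3062, was at 6.9 FPKM (Old 1), 3.28 FPKM (Old 2), 4.74 FPKM (Young 1) and 9.54 FPKM (Young 2), lower in old muscle in both pairs (ratios 0.723 and 0.693). Impdh1, which turns IMP toward guanine nucleotides, had ratios of 1.14 and 1.19.

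AMP-activated protein kinase senses the AMP that adenylate kinase makes. Of its 9 subunit and upstream kinase genes, all had a value and 8 were tested, with a median log2 fold change of 0.01, and 4 were lower and 3 higher in old muscle in both pairs. Prkag3, a regulatory gamma subunit of fast skeletal muscle, was at 98.8 FPKM (Old 1), 39.6 FPKM (Old 2), 19.9 FPKM (Young 1) and 36.0 FPKM (Young 2). Both old samples lay above both young samples, the only one of the 40 tested genes of the 6 lists in which the ages did not overlap as deposited (2.5%, against a background of 1.61% higher and 1.93% lower). Its ratios in samples of similar scale were 2.75 and 1.99 and its log2 fold change was 1.20 (limma, adjusted p = 1.0).

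The beta subunits Prkab1 (ratios 1.31 and 1.37) and Prkab2 (1.22 and 1.17) were higher in old muscle in both pairs. Of the catalytic subunits, Prkaa1 (0.736 and 0.727) was lower in both, and Prkaa2, the more abundant one at 38.8 to 83.4 FPKM and named after its values were seen, had ratios of 0.96 and 0.945. The upstream kinase Stk11, named after its values were seen, was listed at 194 FPKM in Old 1, 173 FPKM in Young 2 and 0 in Old 2 and Young 1.

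Of 6 genes that carry adenine nucleotides and phosphate across the mitochondrial membranes, 3 had a value, and all 3 were lower in old muscle in both pairs (background 45.2%), with a median log2 fold change of -0.41. Slc25a3, the mitochondrial phosphate carrier, was at 618 FPKM (Old 1), 279 FPKM (Old 2), 504 FPKM (Young 1) and 1159 FPKM (Young 2) (ratios 0.533 and 0.553, limma adjusted p = 1.0). Its level in each old sample was thus lower than in the young sample of the same scale, although Old 1 lay above Young 1. The outer membrane channels Vdac1 (ratios 0.856 and 0.869) and Vdac2 (0.749 and 0.757) had smaller differences. The adenine nucleotide translocators Slc25a4 and Slc25a5 and the channel gene Vdac3 were not analysed here.

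With scaling over genes of at least 10 FPKM, limma called 2 kinases, 1 turnover gene and 2 genes of AMP-activated protein kinase higher, and 3 genes of purine synthesis, 2 of AMP-activated protein kinase and 2 of mitochondrial exchange lower. These were 5 of 40 higher (12.5%) and 7 of 40 lower (17.5%), near the background of 14.2% and 14.8% over all tested genes. Among them were Prkag3 (adjusted p = 0.0161, limma) and Prkab2 (0.0431) higher, and Slc25a3 (0.0189), Vdac2 (0.0102), Pfas (0.0144) and Prkaa1 (0.0255) lower in old muscle. Xdh, Nt5c2 and Ak3 had adjusted p of 0.103, 0.0513 and 0.126 on that scale (limma).

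**Figure D4:**
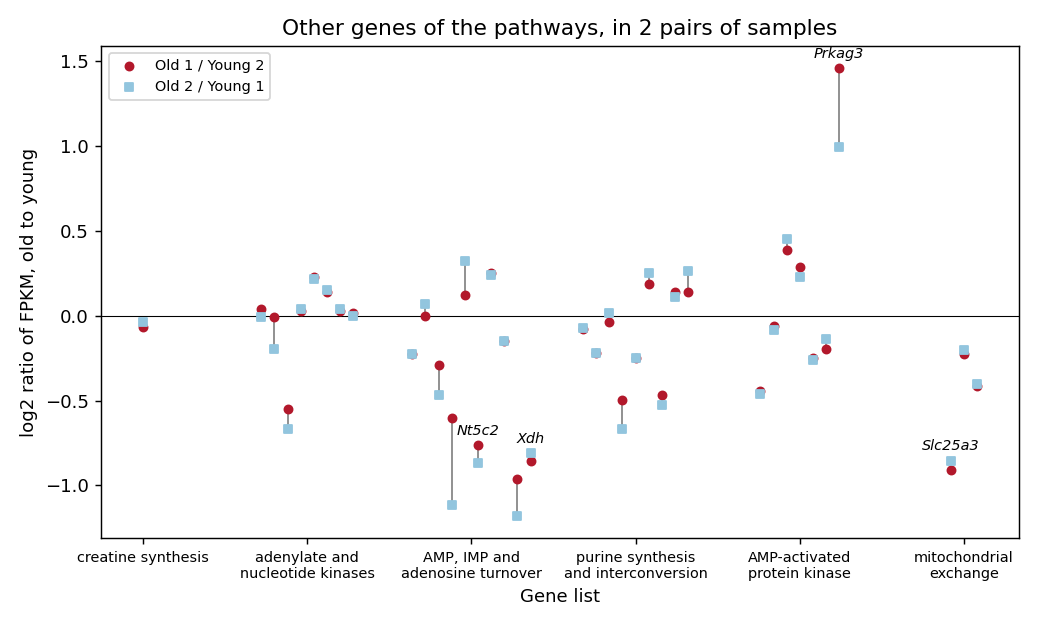
Old to young log2 ratio of FPKM for 38 tested genes of the 6 lists above 0 in all samples, in the samples of larger scale (circles) and of smaller scale (squares), with a line joining the pair of values of a gene. Prkag3 stands highest (ratios 2.75 and 1.99), and Slc25a3, Xdh and Nt5c2 lie below 0 in both pairs.

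The genes with the pattern most like that of Ckmt2 were Flnc, Hspb6 and Atp5g1, by Euclidean distance of median-scaled log2 FPKM centered on each gene over the 4 samples, among 2446 genes of at least 10 FPKM in all samples. Their distances were 0.2, 0.236 and 0.351. Flnc, a filamin of the Z-disc, was at 94.6, 42.9, 92.5 and 245 FPKM in Old 1, Old 2, Young 1 and Young 2. Hspb6, a small heat shock protein, was at 928, 418, 920 and 2289 FPKM, and Atp5g1, a subunit of mitochondrial ATP synthase, at 923, 448, 1026 and 2181 FPKM. Their old to young ratios of 0.386 to 0.464 in samples of similar scale follow from the choice by likeness to Ckmt2.

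Fiber type and other cell type markers were read beside these values. Fast fiber markers had a value for 9 of 10 genes and summed to 107616 FPKM (Old 1), 15834 FPKM (Old 2), 21036 FPKM (Young 1) and 87521 FPKM (Young 2). Of these markers, Myh4 was at 0 in every sample, Myh1 at 0 in both young samples and Tnnt3 at 0 in both old samples. Slow fiber markers had a value for 6 of 7 genes. All 6 were higher in each old than in either young sample (background 1.61%), and limma called 5 higher (background 0.175%). They summed to 1282 and 461 FPKM in the old and 35.9 and 89.0 FPKM in the young samples. The slow fiber markers therefore moved with age in the direction opposite to Ckmt2, and their part in the Ckmt2 difference was not tested. The 1 red blood cell label with a value (Hba-a1 and Hba-a2) was at 607 and 277 FPKM in the old and 39.5 and 88.6 FPKM in the young samples, higher in both old samples as Ampd3 was in both pairs, and its part in the Ampd3 difference was not tested.

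Schwann cell and nerve markers summed to 44.0 and 20.9 FPKM in the old and 32.0 and 65.0 FPKM in the young samples, and all 3 tested were lower in old muscle in both pairs (background 45.2%). These sums overlapped between the ages, as did those of smooth muscle (3 of 5 genes with a value, 39.5 to 92.3 FPKM), endothelium (4 of 5, 28.5 to 70.9 FPKM) and adipocytes (6 of 6, 167 to 501 FPKM). Macrophage and leukocyte markers (5 of 6 genes with a value) summed to at most 6.82 FPKM and satellite cell markers (2 of 3) to at most 2.17 FPKM. In this bulk tissue, fewer cells of a type and less RNA per cell cannot be told apart.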

How the data were processed

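The 4 mRNA-seq samples of TA muscle were grouped by the age in their labels, with 2 at 20 months and 2 at 3 months. The authors trimmed reads, removed PCR duplicates, aligned to mm10 with TopHat2 (2.0.10, per the submitters' processing notes) and deposited FPKM values per locus for each sample. They tested genes with Cuffdiff (2.1.1), which needs aligned reads and was not repeated. FPKM values hold no read counts, so depth and counting error are unknown and a count test was not run. An incomplete last line of each sample (1 per sample) was left out, and genes without a value in all samples were not analysed here.

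Loci sharing a symbol were summed, and log2(FPKM + 1) was compared between ages over genes of at least 1 FPKM in at least 2 samples with limma 3.58.1 in R 4.3.3 (two-sided, variance trend in eBayes, adjusted p under 0.05 by Benjamini-Hochberg over all genes tested). Fold changes on this scale understate the change of low genes. Single ratios were compared with an exact permutation test. The fit was also run on simulated data, with a set recovery required only where the samples had no gap in scale, unlike here. Other steps used numpy 2.4.6, pandas 2.3.3 and matplotlib 3.10.9 in Python 3.11.15. Median scaling divided each sample by its median ratio to the geometric mean over 10639 genes above 0 in all samples. Scaling over genes of at least 10 FPKM, the crossed pairs of samples and the ratios to Ampd1 (planned to Ckm) were added after seeing the data.

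The members and lists were chosen with earlier results of these data known. Besides the 8 genes, the text names by rule the 3 genes nearest in pattern to Ckmt2 and at most 4 genes per pathway list. The list genes had the largest change after median scaling among genes of at least 1 FPKM in all samples whose ages did not overlap. Gatm, Gamt, Prkaa2 and Stk11 were named outside this rule. So were Adss, Ampd2 and Ak4, which were set beside the muscle forms as ratios. Upstream windows and motif shares came from RefSeq (GRCm38.p6), and overlapping genes from GENCODE.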

Additional observations from a re-analysis of the deposited data

How the results depend on the processing

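Depth is unknown and each age has 2 samples that differ in scale, which limits every difference between the ages. Of 10266 genes, 18 were higher and 13 lower in old muscle with the values as deposited (limma). These counts were 0 and 0 with no filter (52 of 20340 genes at an unadjusted p under 0.05), 4 and 2 with a minimum of 1 FPKM in each of the samples, 89 and 136 with quantile normalization, and 24 and 22 with median scaling. With scaling over genes of at least 10 FPKM, added after seeing the data, they were 1454 and 1516. Leaving out each sample in turn gave 2 to 6 higher and 3 to 10 lower, with the lone sample of an age assumed to vary like the others. Of the 7 tested genes of the report, 0 were called with the values as deposited, and 1 higher and 2 lower with the added scaling.

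The replicate numbers did not pair the samples. Deviations of samples with the same number had a correlation of -0.885 over 10266 genes as deposited and -0.902 with the added scaling. The first value also carries the gap in scale, which runs in opposite directions in the 2 ages. With the replicate number as a block, 2 genes were higher and 3 lower, 98 and 118 with the replicate block and median scaling, and 0 and 2 with the replicate block and the added scaling (2433 genes at an unadjusted p under 0.05). Of the genes of the report, the replicate block with median scaling called 1 lower, Ckmt2 (-1.41, adjusted p = 0.0175, limma), and the block alone called none (Ckmt2 -1.43, adjusted p = 1.0). The crossed pairs as a block, added after seeing the data, called 2812 genes higher and 3374 lower, among them 3 higher and 3 lower of the 7.

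Ckmt2 was also past the threshold with the added scaling (-1.41) and the crossed pairs (-1.43). It did not pass with quantile normalization (-1.24, adjusted p = 0.0719, limma). With the replicate block and the added scaling it did not pass either (-1.41, adjusted p = 0.105, limma). Ckmt2 ranged from -2.16 to -0.70 when each sample was left out (without Young 1 and without Young 2). Its direction did not change under any of these settings. The other 6 changed sign when 1 sample was left out. Without Old 2 and without Young 2, the log2 fold change was 0.43 and 0.46 for Ckb, 0.28 and 0.31 for Ak1, and 0.19 and 0.20 for Adsl. Without Old 1 and without Young 1, it was -0.46 and -0.43 for Ampd1, -0.03 and -0.05 for Ampd3, and -0.49 and -0.47 for Adssl1. Over the samples left out, the ranges were -0.70 to 0.46 (Ckb), -1.02 to 0.31 (Ak1), -0.46 to 0.87 (Ampd1), -0.05 to 0.89 (Ampd3), -0.49 to 0.72 (Adssl1) and -0.74 to 0.20 (Adsl). The 6 ratios to Ampd1 kept their direction under every alternative run. The list medians changed sign when 1 sample was left out, for mitochondrial exchange from -0.91 (without Young 1) to 0.10 (without Young 2). In these reversals the scale of the samples left was unequal between the ages. The causes of the other differences were not tested.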
